A study of Mus musculus with 14 samples.

Results

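A set of 43 genes that copy DNA, or that prepare cells to do so in S phase, was followed across 4 groups of mouse ear samples. The set was fixed by name, from the replication helicase to the G1/S regulators, and each gene was found by its symbol among the 24035 genes of the deposited table. All 43 were present, and all 43 were among the 14693 genes with at least 1 TPM (transcript abundance scaled for gene length and for the sample total) in at least 3 samples. The lowest of them were Orc1, at 1 TPM or more in 11 of the 14 samples, and Ccne1, in 13. The data were bulk mRNA sequencing of the whole ear of LC-DTR and LC-DTA mice, 2 genotypes depleted of Langerhans cells, which are epidermal dendritic cells. LC-DTA mice lacked these cells long term. LC-DTR mice lost them over the short term through diphtheria toxin (DT), given 3 days before. Both sides of the ears had received 20 µl of acetone mixed with olive oil (vehicle) or of 1% croton oil, a skin irritant, and tissue was taken after 6 h. The groups were LC-DTR with vehicle (3 samples), LC-DTR with croton oil (4 samples), LC-DTA with vehicle (3 samples) and LC-DTA with croton oil (4 samples). No group had intact Langerhans cells, so a response in their presence was not measured here. The labels do not name the promoter that drives either transgene, nor whether DT was given to LC-DTA mice. They do not say that the samples were separate animals, and p-values therefore measure the spread between these samples only. Cd207, which encodes langerin and marks Langerhans cells, lay between 0.0567 and 1.88 TPM in all samples and was too low to test.

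Before each division a cell loads the MCM2-7 helicase onto replication origins, which needs the origin recognition complex, Cdc6 and Cdt1. On entry into S phase the helicase is activated by Cdc45 and the GINS complex, the clamp PCNA is placed on DNA by replication factor C, and polymerases alpha, delta and epsilon copy the strands. Many of these genes are transcribed by E2F factors, which are held back by pocket proteins until cyclin-dependent kinases act on them. In skin, dividing cells sit mainly in the basal layer of the epidermis and in the hair follicle, and immune cells can divide as well.

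The values were TPM, and differences are given on the log2(TPM + 1) scale, which understates the change of genes with few TPM. A gene was called where the Benjamini-Hochberg adjusted p over all tested genes was under 0.05 in limma, a linear model with moderated variances. The deposited TPM carry no read depth, so counting error is unknown. Genes at 1 TPM or more numbered 13733 to 14332 per sample, and the log2 values of samples of 1 group correlated at 0.9859 to 0.9961. In a principal component analysis of all tested genes, the first component was at 5.26 and 8.06 for samples 2 and 3 of LC-DTR with croton oil, and at 28.5 and 28.6 for the other two. LC-DTR vehicle sample 3 was above the mean of its group for all 43 replication genes. For the 43 genes, the main counts and calls that these samples decide are given with and without them. For other lists, only some counts are given without LC-DTR vehicle sample 3, and marker lists were not refitted. In GENCODE M21, 16 of the 43 genes share exonic bases with another gene, and since strand use in counting is not given in the sources used here, these genes are uncertain.

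Up to 250 bases before the RefSeq start of transcription are shown for the 3 genes that fell most after croton oil in LC-DTR, Uhrf1, Mcm5 and Mcm2, and for the subunits of ribonucleotide reductase, Rrm1 and Rrm2, which moved in opposite directions there. The sequences are RefSeq's for GRCm38.p6, cut where the GENCODE M21 gene begins, and capitals mark E2F words and CCAAT boxes. Mcm5 lies on the plus strand at chr8:75109259-75109508, Uhrf1 at chr17:56303087-56303320, Rrm1 at chr7:102441445-102441694 and Rrm2 at chr12:24708004-24708240, all plus strand. The Mcm2 stretch is on the minus strand at chr6:88898781-88899030.
Uhrf1: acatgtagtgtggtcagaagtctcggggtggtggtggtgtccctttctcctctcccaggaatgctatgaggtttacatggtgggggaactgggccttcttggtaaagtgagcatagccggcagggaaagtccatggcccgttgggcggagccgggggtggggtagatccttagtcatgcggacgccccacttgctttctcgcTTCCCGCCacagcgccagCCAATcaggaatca
Mcm5: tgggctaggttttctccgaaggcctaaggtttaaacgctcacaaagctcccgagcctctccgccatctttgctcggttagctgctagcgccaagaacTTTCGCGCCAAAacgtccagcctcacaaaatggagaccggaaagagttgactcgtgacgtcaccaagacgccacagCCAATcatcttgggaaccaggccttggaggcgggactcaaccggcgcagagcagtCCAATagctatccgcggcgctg
Mcm2: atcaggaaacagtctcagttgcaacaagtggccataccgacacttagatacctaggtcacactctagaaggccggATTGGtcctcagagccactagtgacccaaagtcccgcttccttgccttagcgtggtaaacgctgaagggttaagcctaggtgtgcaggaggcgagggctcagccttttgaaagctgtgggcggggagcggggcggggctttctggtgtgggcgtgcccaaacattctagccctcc
Rrm1: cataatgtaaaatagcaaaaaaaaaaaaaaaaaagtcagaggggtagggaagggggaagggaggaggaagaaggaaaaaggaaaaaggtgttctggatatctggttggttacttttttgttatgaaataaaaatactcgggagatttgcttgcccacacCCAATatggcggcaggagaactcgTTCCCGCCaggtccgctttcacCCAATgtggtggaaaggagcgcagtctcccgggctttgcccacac
Rrm2: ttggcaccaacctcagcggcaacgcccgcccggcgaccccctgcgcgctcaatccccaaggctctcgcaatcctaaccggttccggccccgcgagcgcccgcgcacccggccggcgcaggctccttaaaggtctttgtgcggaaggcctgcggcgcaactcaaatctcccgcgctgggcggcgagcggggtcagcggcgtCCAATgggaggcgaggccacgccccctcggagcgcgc
The E2F words searched on both strands were TTTCCCGC, TTTGGCGC, TTTCGCGC, TTTGCCGC, TTCCCGCC and TTGGCGCC, which can overlap. In Mcm5, TTTCGCGC on the plus strand and TTTGGCGC on the minus strand overlap, from 153 and 149 bases before the start. Rrm1 holds TTCCCGCC from 67 bases before its start, and Uhrf1 holds the same word from 48 bases before the upstream one of its RefSeq starts, which lies beyond the end of the stretch shown. The stretches of Mcm2 and Rrm2 hold none of these words, which says nothing about E2F at these genes. Of the 37 replication genes in the promoter table, 14 (37.8%) held an E2F word, against 7.31% of the 10797 tested genes in the table and 4.27% of all 27025. The CCAAT box, a frequent promoter element, was in 20 of the 37 (54.1%), against 39.4% of the tested genes. The CHR element of G2/M genes (TTTGAA or TTCGAA) was in 6 of the 37 (16.2%), against 14.7% of the tested genes. A match of letters is a description and not a site of binding.

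In LC-DTR mice, croton oil was followed by lower levels of nearly all of the 43 genes. Of the 43 genes, 41 fell and 1, Rrm2, rose, where 29.5% of all tested genes were called lower and 22.1% higher. The median difference of the 43 was -0.82 on the log2 scale, against -0.06 over all tested genes. The called decreases ran from -0.29 for Orc6 to -2.03 for Uhrf1, with adjusted p from 2.75e-07 to 0.0138. A called fall of more than 1 log2 unit was seen in 16 of the 43 genes and in 323 of all 14693 tested genes. For 40 of the 43, every croton oil sample of LC-DTR was below every vehicle sample, a separation that 27.1% of all tested genes showed. Per sample, the median of the 43 genes was -1.0, -0.72, -0.78 and -0.87 relative to the LC-DTR vehicle mean. The calls of lower genes numbered 40 without LC-DTR vehicle sample 3, and 40 without LC-DTR croton oil samples 2 and 3.

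In LC-DTA mice the same treatment was followed by no such fall. There 13 of the 43 genes rose and 5 fell, where 24.2% of all tested genes were called higher and 34.5% lower, and the median of the 43 was 0.07 against -0.09 over all tested genes. The genes that rose were Mcm2, Mcm3, Mcm4, Mcm5, Orc1, Pcna, Pola1, Tyms, Rrm2, Hells, Slbp, Ccne1 and Rbl1. Those that fell were Mcm7, Rfc3, Rfc5, Dut and Chaf1b. Of the 43, 11 fell in LC-DTR and rose in LC-DTA, 5 fell in both, and 25 fell in LC-DTR with no call in LC-DTA. How many of all tested genes showed each pair of calls was not counted, so these joint counts only describe the 43. The number of increases in LC-DTA varied with samples and scaling. It was 17, with 3 decreases, after scaling by the median ratio, and 16, with 4 decreases, after quantile normalization. Without LC-DTA croton oil samples 3 and 4 together, 7 genes were called higher and 2 lower, and without LC-DTA vehicle sample 3, 8 were called higher.

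**Figure D1:**
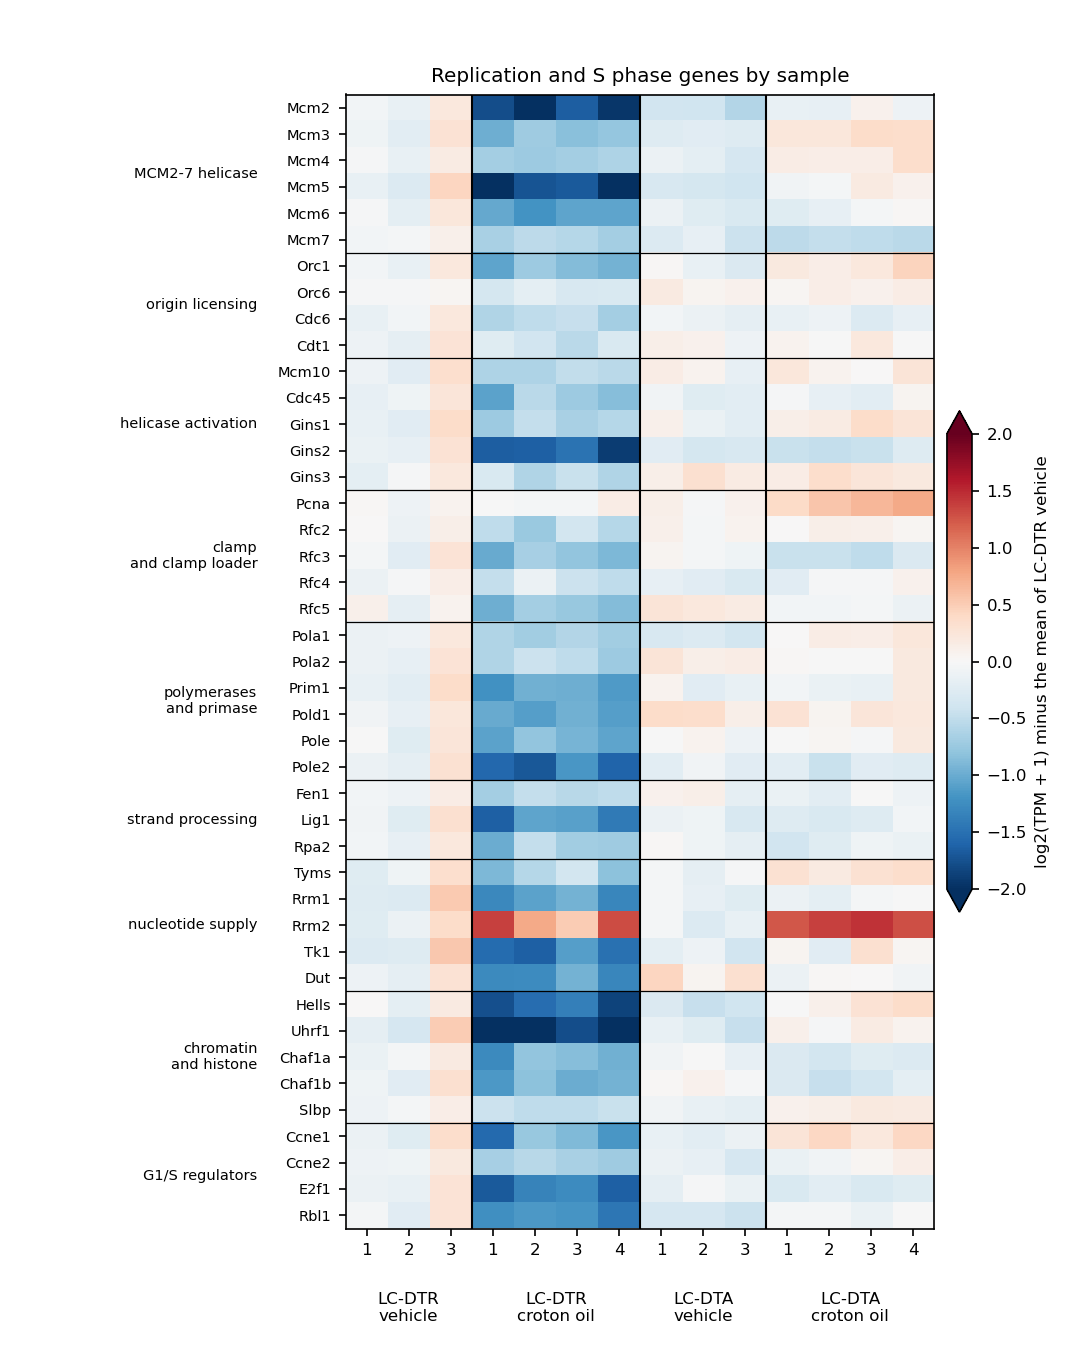
Level of each of the 43 genes (rows, grouped by role) in each of the 14 samples (columns, numbered within their group), as log2(TPM + 1) minus the mean of the LC-DTR vehicle samples. The 4 LC-DTR croton oil columns are blue in nearly every row, Rrm2 is red in both croton oil groups, and LC-DTR vehicle sample 3 is above the mean of its group in every row.

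**Figure D2:**
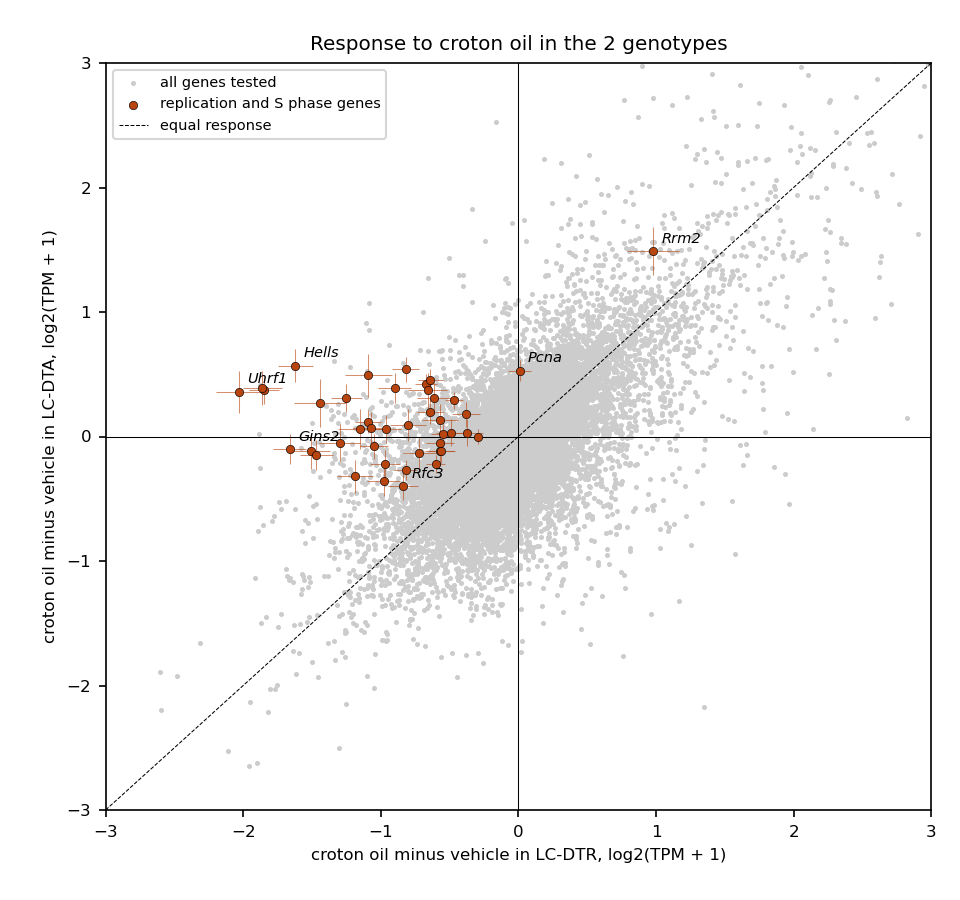
Difference between croton oil and vehicle in LC-DTR (x axis) and in LC-DTA (y axis), both on the log2(TPM + 1) scale, for all tested genes (grey) and the 43 replication genes (orange, bars ± SE). Of the 43, 41 lie left of 0 as called decreases in LC-DTR, while all 43 lie above the dashed line of equal response. The 51 genes beyond 3 log2 units on either axis are not drawn.

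The 6 subunits of the MCM2-7 helicase, which unwinds DNA at the fork, all fell in LC-DTR, but to very different extents. Mcm2 was at 18.3, 17.0 and 22.1 TPM in LC-DTR vehicle and at 4.84, 3.97, 5.38 and 4.20 TPM in LC-DTR croton oil. It was at 14.3, 14.2 and 12.4 TPM in LC-DTA vehicle and at 17.1, 16.8, 20.3 and 17.6 TPM in LC-DTA croton oil. The LC-DTR croton oil samples of Mcm2 thus stood apart below the other 10 samples. Mcm2 fell by 1.85 (SE 0.11, adjusted p = 2.75e-07) in LC-DTR and rose by 0.37 (SE 0.11, adjusted p = 0.0103) in LC-DTA. Mcm5 followed the same course, at 16.4, 14.9 and 24.9 TPM in LC-DTR vehicle and 3.75, 4.81, 5.0 and 3.84 TPM in LC-DTR after croton oil. In LC-DTA it was at 14.5, 14.2 and 13.6 TPM with vehicle and at 17.3, 17.8, 20.7 and 19.4 TPM with croton oil. Its differences were -1.86 (SE 0.14, adjusted p = 1.21e-06) in LC-DTR and 0.39 (SE 0.14, adjusted p = 0.0313) in LC-DTA, where the groups also did not overlap. The call of Mcm5 in LC-DTA was lost without any 1 of 5 samples, LC-DTA vehicle samples 1, 2 and 3 and LC-DTA croton oil samples 3 and 4, at adjusted p from 0.0588 to 0.0847. That of Mcm2 was lost without LC-DTA vehicle sample 3 (adjusted p = 0.0537).

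Mcm3 was at 24.3, 22.1 and 31.8 TPM in LC-DTR vehicle and at 12.6, 15.4, 14 and 14.7 TPM after croton oil. In LC-DTA it went from 21.4, 21.9 and 21.4 TPM to 30.3, 30.2, 33.6 and 33.0 TPM, the largest called rise of the helicase subunits there, at 0.54 (SE 0.10, adjusted p = 0.000594). Mcm4 and Mcm6 fell by 0.67 and by 1.09 in LC-DTR. Mcm7 was the subunit that fell in both genotypes, by 0.60 (SE 0.07, adjusted p = 2.13e-05) in LC-DTR and by 0.22 (SE 0.07, adjusted p = 0.0141) in LC-DTA. Its TPM were 40.8, 41.2 and 46.0 and then 26.9, 29.5, 28.4 and 26.2 in LC-DTR, and 34.9, 37.8 and 31.4 and then 29.3, 30.3, 29.5 and 29.0 in LC-DTA. Reads of Mcm7 are uncertain, because its exons share bases with Ap4m1 and Cops6 on the opposite strand and with the microRNA genes Mir25 and Mir93 on its own strand.

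The transcripts of the subunits did not keep their proportions, and protein was not measured. The ratio of Mcm5 to Mcm7 TPM within a sample was 0.435 ± 0.0946 (SD, n = 3) in LC-DTR vehicle and 0.156 ± 0.0165 (SD, n = 4) in LC-DTR after croton oil. In LC-DTA it was 0.408 ± 0.0301 (SD, n = 3) with vehicle and 0.637 ± 0.0572 (SD, n = 4) with croton oil. Neither pair of groups overlapped, so the ratio was lower after croton oil in every LC-DTR sample and higher in every LC-DTA sample. Mcm2 to Mcm7 did likewise, with group means of 0.447, 0.166, 0.394 and 0.608 in the same order of groups. Both ratios rest on Mcm7, whose reads are uncertain.

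**Figure D3:**
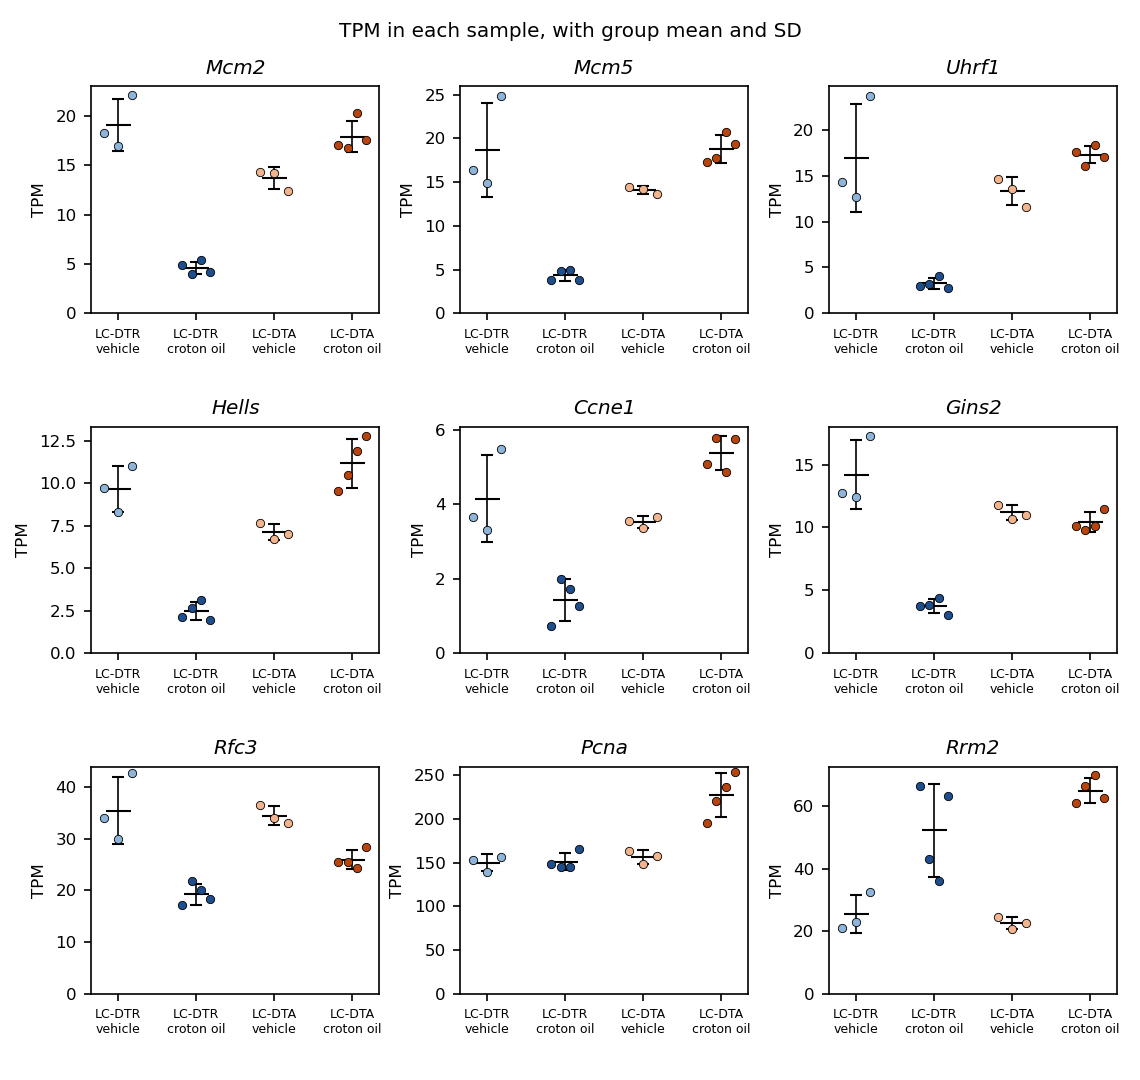
TPM of 9 genes in each sample (points), with the mean and SD of each group (bars), on axes that start at 0. For Mcm2, Mcm5, Uhrf1, Hells, Ccne1 and Gins2 the 4 LC-DTR croton oil samples lie below the other 10, while Pcna stays near 150 TPM in LC-DTR and Rrm2 is higher after croton oil in both genotypes.

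The licensing factors all fell in LC-DTR. Orc1, a subunit of the origin recognition complex, fell by 0.90 (SE 0.12, adjusted p = 5.89e-05) and Cdc6, which helps to load the helicase, by 0.57. Cdt1, which is also needed to load the helicase, fell by 0.37 and Orc6 by 0.29. Orc1 was at 2.27, 2.06 and 2.93 TPM in LC-DTR vehicle and 0.629, 1.05, 0.871 and 0.767 TPM after croton oil. It was the licensing gene that rose in LC-DTA, by 0.39 (SE 0.12, adjusted p = 0.0134). For Cdc6, Cdt1 and Orc6 the LC-DTA differences were between -0.05 and 0.03, with no call.

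The 5 genes of helicase activation, Mcm10, Cdc45, Gins1, Gins2 and Gins3, also all fell in LC-DTR. Their differences in LC-DTA were between -0.10 and 0.31, and the lowest adjusted p there was 0.0611, for Gins1. Gins2, a subunit of the GINS complex, changed most, from 12.7, 12.4 and 17.3 TPM to 3.80, 3.84, 4.38 and 3.03 TPM. In LC-DTA it was at 11.8, 10.7 and 11.0 TPM with vehicle and at 10.1, 9.77, 10.1 and 11.5 TPM with croton oil, groups that overlapped. The differences of Gins2 were -1.66 (SE 0.12, adjusted p = 8.44e-07) and -0.10 (SE 0.12, adjusted p = 0.467). Its reads are uncertain, since 2758 of its exonic bases are shared with Gse1 on the opposite strand. The other 4 genes fell by 0.49 to 0.80 in LC-DTR, Gins3 least and Cdc45 most.

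The clamp and its loader did not move as a unit. Pcna, the sliding clamp that holds polymerases on DNA, was at 153, 139 and 157 TPM in LC-DTR vehicle and at 149, 145, 145 and 166 TPM in LC-DTR croton oil, and these groups overlapped. In LC-DTA it went from 163, 148 and 158 TPM to 195, 221, 237 and 254 TPM, with no overlap. Pcna differed by 0.01 (SE 0.084, adjusted p = 0.905) in LC-DTR and rose by 0.53 (SE 0.084, adjusted p = 0.000131) in LC-DTA. The genome holds processed copies, Pcna-ps1 and Pcna-ps2, with which Pcna may share reads. The loader subunits Rfc2, Rfc3, Rfc4 and Rfc5 all fell in LC-DTR, by 0.38 for Rfc4 to 0.84 for Rfc3. Rfc3 and Rfc5 fell in LC-DTA as well, by 0.40 (SE 0.11, adjusted p = 0.00615) and by 0.27 (SE 0.083, adjusted p = 0.0115). Rfc3 was at 34.0, 29.9 and 42.7 TPM and then 17.1, 21.8, 20.0 and 18.4 TPM in LC-DTR, and at 36.6, 34.1 and 33.0 TPM and then 25.5, 25.5, 24.4 and 28.5 TPM in LC-DTA. Rfc5 was at 25.7, 21.0 and 25.2 TPM and then 11.7, 14.5, 13.7 and 12.6 TPM in LC-DTR. It was at 28.9, 27.9 and 26.8 TPM in LC-DTA vehicle and at 23.1, 23.0, 23.3 and 22.0 TPM in LC-DTA croton oil. For both genes the vehicle and croton oil groups were separate in each genotype.

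All 6 genes of the polymerases and primase fell in LC-DTR, from -0.57 for Pola2 to -1.51 for Pole2, the second subunit of polymerase epsilon. Pola1, the catalytic subunit of polymerase alpha, fell by 0.64 (SE 0.09, adjusted p = 7.97e-05) in LC-DTR and rose by 0.45 (SE 0.09, adjusted p = 0.000756) in LC-DTA. It was at 7.31, 7.42 and 9.41 TPM and then 4.92, 4.57, 5.02 and 4.54 TPM in LC-DTR, and at 6.18, 6.46 and 5.94 TPM and then 8.07, 8.98, 8.90 and 9.51 TPM in LC-DTA. Its groups were separate in both genotypes, in opposite directions. The other 5, Pola2, Prim1, Pold1, Pole and Pole2, had differences between -0.12 and 0.07 in LC-DTA, with no call. Of the genes that process the new strands, the flap endonuclease Fen1 fell by 0.56, the ligase Lig1 by 1.30 and the single-strand binding subunit Rpa2 by 0.72 in LC-DTR, with LC-DTA differences between -0.13 and -0.05 and no call.

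Among the enzymes that supply nucleotides, Rrm2 moved against the rest. Ribonucleotide reductase makes deoxynucleotides and is built of the large subunit Rrm1 and the small subunit Rrm2. Rrm2 was at 21.0, 23.0 and 32.5 TPM in LC-DTR vehicle and at 66.5, 43.2, 36.0 and 63.1 TPM in LC-DTR after croton oil. In LC-DTA it went from 24.4, 20.6 and 22.5 TPM to 61.0, 66.3, 70.0 and 62.4 TPM. All croton oil samples lay above all vehicle samples, and LC-DTR samples 2 and 3, which stood apart in the principal components, were the lowest of the croton oil samples. Rrm2 rose by 0.98 (SE 0.19, adjusted p = 0.000717) in LC-DTR, by 1.33 without samples 2 and 3, and by 1.49 (SE 0.19, adjusted p = 2.14e-05) in LC-DTA. Rrm1 was at 33.0, 32.5 and 57.2 TPM and then 15.5, 18.2, 20.1 and 15.4 TPM in LC-DTR, where it fell by 1.15 (SE 0.16, adjusted p = 7.09e-05). In LC-DTA it differed by 0.06 (SE 0.16, adjusted p = 0.769).

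The ratio of Rrm2 to Rrm1 TPM was 0.638 ± 0.0686 (SD, n = 3) in LC-DTR vehicle and 0.632 ± 0.0437 (SD, n = 3) in LC-DTA vehicle, levels that overlapped. After croton oil it was 3.14 ± 1.24 (SD, n = 4) in LC-DTR, with single samples at 4.28, 2.37, 1.79 and 4.10, and 1.75 ± 0.15 (SD, n = 4) in LC-DTA. The ratio was thus above the vehicle range in all 8 croton oil samples, through a higher Rrm2 in both genotypes and a lower Rrm1 in LC-DTR. The croton oil groups of the genotypes overlapped in this ratio, since LC-DTR sample 3 lay within the LC-DTA range of 1.59 to 1.93.

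**Figure D4:**
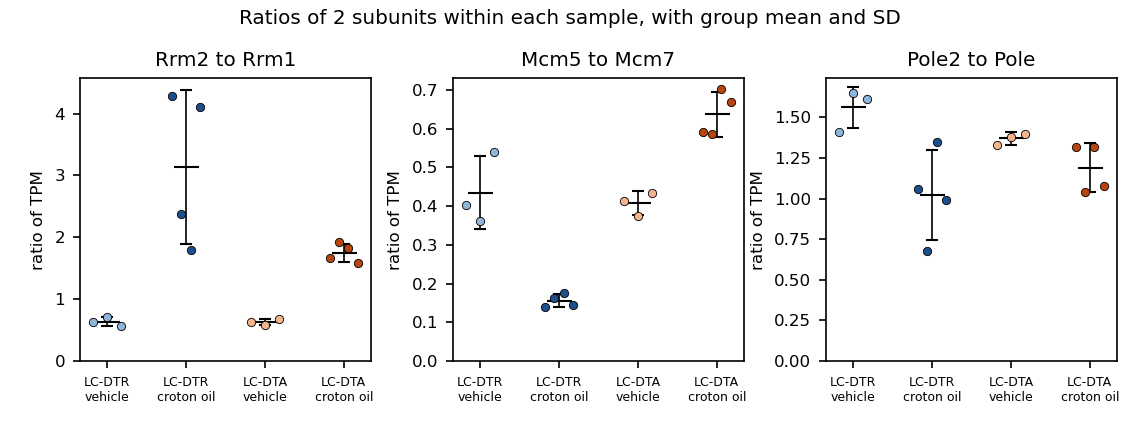
Ratio of the TPM of 2 subunits of the same complex in each sample (points), with group mean and SD (bars), for ribonucleotide reductase, the MCM helicase and polymerase epsilon. Rrm2 to Rrm1 is above the vehicle range in all 8 croton oil samples, while Mcm5 to Mcm7 lies below the vehicle range in LC-DTR and above it in LC-DTA.

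The other nucleotide enzymes fell in LC-DTR. Thymidine kinase Tk1 fell by 1.44, the dUTPase Dut by 1.19 and thymidylate synthase Tyms by 0.66. In LC-DTA Tyms rose by 0.37 (SE 0.14, adjusted p = 0.0382) and Dut fell by 0.32 (SE 0.13, adjusted p = 0.0438). Dut was at 12.1, 11.4 and 16.2 TPM in LC-DTR vehicle and at 4.81, 4.90, 6.32 and 4.68 TPM in LC-DTR croton oil, with no overlap. It was at 18.0, 13.7 and 16.6 TPM in LC-DTA vehicle and at 12, 13.2, 13.1 and 12.3 TPM in LC-DTA croton oil, and its LC-DTA call was lost without any 1 of 6 samples, every LC-DTA sample but vehicle sample 2. Tyms may share reads with the processed copy Tyms-ps.

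The chromatin genes held the deepest fall of the 43. Uhrf1, which reads hemimethylated DNA behind the fork and recruits the maintenance DNA methyltransferase, was at 14.3, 12.7 and 23.7 TPM in LC-DTR vehicle and at 3.02, 3.23, 4.06 and 2.71 TPM in LC-DTR after croton oil. In LC-DTA it was at 14.6, 13.6 and 11.6 TPM with vehicle and at 17.6, 16.1, 18.4 and 17.1 TPM with croton oil. The LC-DTR groups of Uhrf1 were far apart, with a difference of -2.03 (SE 0.17, adjusted p = 1.62e-06). The LC-DTA groups did not overlap either, but the difference of 0.36 (SE 0.17, adjusted p = 0.0736) was not called. Hells, a chromatin remodeller of the SNF2 family, was at 9.74, 8.30 and 11.0 TPM and then 2.15, 2.69, 3.13 and 1.94 TPM in LC-DTR. In LC-DTA it went from 7.67, 6.73 and 7.03 TPM to 9.54, 10.5, 11.9 and 12.8 TPM. Hells fell by 1.62 (SE 0.13, adjusted p = 1.45e-06) in LC-DTR and rose by 0.57 (SE 0.13, adjusted p = 0.00201) in LC-DTA, with separate groups in each.

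The subunits of chromatin assembly factor 1, which deposits histones on new DNA, fell by 0.97 (Chaf1a) and by 0.98 (Chaf1b) in LC-DTR. Chaf1b was at 15.5, 13.9 and 20.8 TPM in LC-DTR vehicle and at 6.85, 8.94, 7.75 and 8.08 TPM in LC-DTR croton oil, all lower. In LC-DTA Chaf1b fell by 0.36 (SE 0.12, adjusted p = 0.0186), from 16.8, 17.6 and 16.3 TPM to 13.3, 11.7, 12.6 and 14.3 TPM. That call was lost without LC-DTA vehicle sample 2 (adjusted p = 0.0648) and without LC-DTA croton oil sample 2 (adjusted p = 0.053). Chaf1a is uncertain, since 4648 of its exonic bases are shared with Ubxn6 on the opposite strand. Slbp, which binds histone mRNA, fell by 0.47 in LC-DTR and rose by 0.29 (SE 0.066, adjusted p = 0.00215) in LC-DTA.

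The 4 regulators of the step from G1 to S fell in LC-DTR. Cyclin E1, encoded by Ccne1, was at 3.66, 3.30 and 5.48 TPM in LC-DTR vehicle and at 0.730, 2.0, 1.74 and 1.26 TPM in LC-DTR after croton oil. In LC-DTA it went from 3.55, 3.36 and 3.67 TPM to 5.08, 5.77, 4.88 and 5.76 TPM. Its differences were -1.09 (SE 0.17, adjusted p = 0.000199) and 0.49 (SE 0.17, adjusted p = 0.0253), with no overlap in either genotype. The LC-DTA call of Ccne1 was lost with a pseudocount of 0.1 TPM (adjusted p = 0.0646) and without any 1 of 4 samples, LC-DTA vehicle samples 1 and 2 and LC-DTA croton oil samples 2 and 4. Rbl1, the pocket protein p107, was at 9.03, 7.89 and 11.5 TPM and then 3.42, 3.65, 3.56 and 2.82 TPM in LC-DTR, and at 7.17, 7.24 and 6.68 TPM and then 9.03, 9.05, 8.41 and 9.26 TPM in LC-DTA. Rbl1 fell by 1.25 (SE 0.11, adjusted p = 2.30e-06) in LC-DTR and rose by 0.31 (SE 0.11, adjusted p = 0.0246) in LC-DTA. E2f1, the transcription factor, fell by 1.47 (SE 0.12, adjusted p = 1.97e-06) and Ccne2 by 0.64, and in LC-DTA they differed by -0.15 (adjusted p = 0.312) and 0.20 (adjusted p = 0.096).

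With vehicle alone few of these genes differed between the genotypes. In LC-DTA, limma called 4 of the 43 genes lower than in LC-DTR and 0 higher (10 and 2 at an unadjusted p under 0.05), where 5.34% of all tested genes were called lower and 19.1% higher, and the median of the 43 was -0.14. The 4 were Mcm2 (-0.45, SE 0.12, adjusted p = 0.0132), Rbl1 (-0.37, SE 0.11, adjusted p = 0.0326), Pola1 (-0.32, SE 0.096, adjusted p = 0.0264) and Mcm7 (-0.29, SE 0.075, adjusted p = 0.0126). These calls depended on single samples and on scaling. Without LC-DTR vehicle sample 3, which was high for all 43 genes, Mcm2 and Mcm7 were called lower, Pola2, Pold1 and Dut higher, and the median of the 43 was 0.02. Without LC-DTA vehicle sample 3, 0 were called lower. Rbl1 and Pola1 were also lost without sample 1 of that group, and Rbl1 without its sample 2. The values as deposited put 78.2% of all calls between the vehicle groups on the higher side, against 54.1% after scaling by the median ratio and 47.7% after quantile normalization, and the lower replication genes then numbered 12 and 14. The median of all tested genes between the vehicle groups was 0.097 as deposited and -0.014 after quantile normalization.

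After croton oil the genotypes were far apart in these genes. Of the 43, 41 were higher in LC-DTA than in LC-DTR and 0 lower in limma (also 0 at an unadjusted p under 0.05), where 34.3% of all tested genes were called higher and 18.0% lower. The median of the 43 was 0.84 against 0.09 over all tested genes, and called differences ran from 0.33 to 2.11, with adjusted p from 2.13e-07 to 0.00966. For 40 genes every LC-DTA croton oil sample was above every LC-DTR croton oil sample, a separation that 29.6% of all tested genes showed. The largest differences were in Uhrf1 (2.11, SE 0.15), Mcm5 (1.89, SE 0.13), Hells (1.81, SE 0.12) and Mcm2 (1.76, SE 0.10). The exceptions were Mcm7, at 0.09 (SE 0.065, adjusted p = 0.277), and Rrm2, at 0.35 (SE 0.17, adjusted p = 0.102). Scaling moved the share of all calls on the higher side from 65.6% to 50.1% by median ratio and by quantiles, and the replication genes called higher stayed at 41 in number with each.

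The difference of the responses, which tests directly whether the response differed between the genotypes, was positive for all 43 genes. It was called for 39, all on the side of LC-DTA, where 10.5% of all tested genes were called on that side and 12.6% on the other. The median of the 43 was 0.92 against -0.02 over all tested genes, and the called adjusted p ran from 8.28e-06 to 0.0279. By p the leading genes were Mcm2 (2.22, SE 0.15, adjusted p = 8.28e-06), Hells (2.20, SE 0.19, adjusted p = 4.53e-05), Mcm5 (2.25, SE 0.20, adjusted p = 6.03e-05) and Rbl1 (1.56, SE 0.15, adjusted p = 9.33e-05). Ccne1 had 1.58 (SE 0.24, adjusted p = 0.00112) and Pcna 0.51 (SE 0.12, adjusted p = 0.00836). The 4 genes without a call were Rrm2 (0.51, SE 0.26, adjusted p = 0.182), Cdt1 (0.40, adjusted p = 0.0828), Pola2 (0.44, adjusted p = 0.0517) and Rfc3 (0.44, adjusted p = 0.0535). Without LC-DTR vehicle sample 3 the count was 36. This comparison shares its samples with those above and is not separate evidence.

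**Figure D5:**
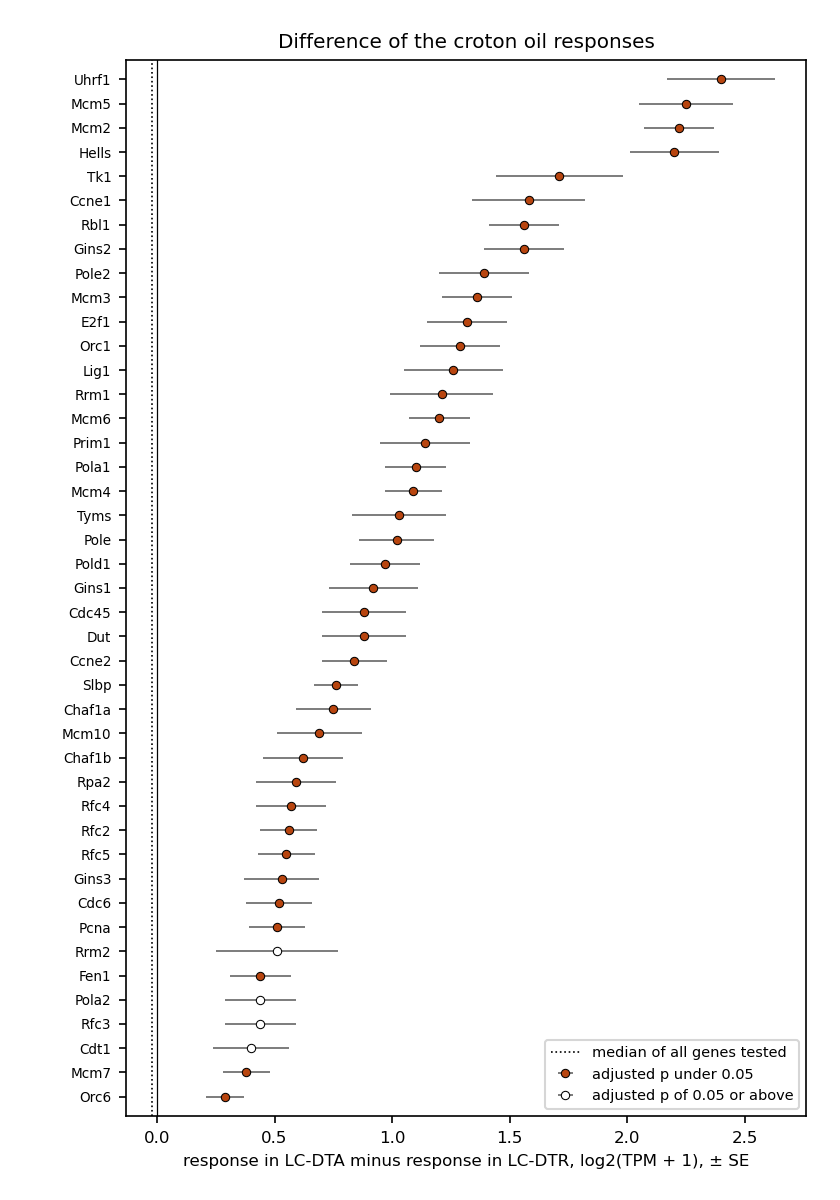
Difference of the croton oil responses, LC-DTA minus LC-DTR, on the log2(TPM + 1) scale with its SE, for each of the 43 genes in order of size. Filled points have an adjusted p under 0.05. All points lie above 0, from 0.29 for Orc6 to 2.40 for Uhrf1, and 4 are open.

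Genes with and without an E2F word were also set side by side. The 14 with a word had a median difference of -1.02 in LC-DTR and 0.09 in LC-DTA, and the 23 without had -0.80 and 0.03. The ranges overlapped widely in LC-DTR, -2.03 to -0.49 with a word and -1.85 to 0.98 without. In LC-DTR, Rrm1, which holds an E2F word, fell. Of the genes without a word, Rrm2 rose and Mcm2 was among those that fell most. A part of E2F in these changes was not tested.

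Genes around the replication machinery were counted from lists of other genes. Over all tested genes, 29.5% were called lower and 22.1% higher in LC-DTR, and 34.5% lower and 24.2% higher in LC-DTA. Of 40 other replication genes, 26 fell and 5 rose in LC-DTR, and 15 rose and 2 fell in LC-DTA, with medians of -0.34 and 0.18. Without LC-DTR vehicle sample 3, 22 fell and 4 rose in LC-DTR. The responses called on the side of LC-DTA then numbered 20, against 25 with all samples, where 10.5% of all tested genes were called. Geminin (Gmnn), the inhibitor of Cdt1, fell by 1.58 (adjusted p = 6.15e-05) in LC-DTR, while the topoisomerase Top1 rose by 0.68 in LC-DTR and by 0.83 in LC-DTA. The clamp-associated factor listed as 2810417H13Rik had the fourth lowest p of this list for the difference of responses, 2.29 (SE 0.39, adjusted p = 0.00177). Tipin, of the fork protection complex, fell by 0.36 in LC-DTR and rose by 0.37 in LC-DTA. Of 21 other genes of nucleotide synthesis, 4 fell and 5 rose in LC-DTR, and 13 rose and 1 fell in LC-DTA. The LC-DTR counts of this list lay near or below the shares over all tested genes. In this list deoxycytidine kinase Dck fell by 1.08 in LC-DTR, and the IMP dehydrogenase Impdh1 and the CTP synthase Ctps rose by 1.05 and 0.78.

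Genes of mitosis fell with those of replication. Over all tested genes, 29.5% were called lower and 22.1% higher in LC-DTR, and 34.5% lower and 24.2% higher in LC-DTA. Of 22 genes of mitosis and the G2/M step, limma called 21 lower and 0 higher in LC-DTR. In LC-DTA, 1 of the 22, Top2a, rose and 0 fell by limma. At an unadjusted p under 0.05, 0 rose in LC-DTR, and 2 rose and 0 fell in LC-DTA. All 22 were higher in LC-DTA than in LC-DTR after croton oil, where 34.3% of all tested genes were called higher. The responses differed for 14 of the 22, on the side of LC-DTA, where 10.5% of all tested genes were called. Mki67, the gene of the proliferation antigen Ki-67, was at 18.1 ± 8.85 TPM (SD, n = 3) in LC-DTR vehicle and 5.49 ± 1.26 TPM (SD, n = 4) in LC-DTR after croton oil. In LC-DTA it was at 19.1 ± 2.20 TPM (SD, n = 3) and 17.2 ± 1.37 TPM (SD, n = 4). Without LC-DTR vehicle sample 3, a check chosen after seeing the data, 17 of the 22 fell in LC-DTR and the responses differed for 11. Under vehicle, 11 of the 22 were then higher in LC-DTA than in LC-DTR, where limma called 0 with all samples (1 at an unadjusted p under 0.05). Of all tested genes, 19.1% were called higher under vehicle with all samples. Without that sample, limma called 3705 of 14665 genes there in either direction.

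The lists of regulators were mixed, and several of their counts lay near the shares over all tested genes, which were 29.5% lower and 22.1% higher in LC-DTR and 34.5% lower and 24.2% higher in LC-DTA. A list of 8 genes held D cyclins, cyclin-dependent kinases, cyclin A2 (Ccna2) and Cdc25a. Of these, 5 fell and 1 rose in LC-DTR, and 2 fell and 2 rose in LC-DTA. Ccna2 fell by 1.31 (adjusted p = 0.00029) in LC-DTR and differed by 0.26 (adjusted p = 0.316) in LC-DTA. Cyclin D1 (Ccnd1) fell by 1.05 (adjusted p = 0.000292) in LC-DTR and differed by -0.17 (adjusted p = 0.415) in LC-DTA, whereas cyclin D2 (Ccnd2) fell in both, by 1.06 and by 0.73, and the kinase Cdk6 rose in both, by 0.74 and 1.28. Of 11 other E2F and pocket protein genes, 3 fell and 5 rose in LC-DTR, and 4 fell and 7 rose in LC-DTA. E2f2 fell by 1.88 (adjusted p = 4.36e-06) in LC-DTR and by 0.57 in LC-DTA, and E2f4 rose by 0.59 and 0.57. Of 6 tested CDK inhibitor genes, 3 fell and 1 rose in LC-DTR, and 4 fell and 2 rose in LC-DTA. Cdkn1a, the gene of p21, rose from 351 ± 53.7 TPM (SD, n = 3) to 685 ± 22.8 TPM (SD, n = 4) in LC-DTR and from 336 ± 28.4 TPM (SD, n = 3) to 488 ± 26.5 TPM (SD, n = 4) in LC-DTA. These were rises of 0.97 and 0.54, and the difference of the responses was -0.43 (SE 0.13, adjusted p = 0.0249). Without LC-DTR vehicle sample 3 that difference was -0.32 (SE 0.11, adjusted p = 0.0515). Of the CDK inhibitor genes 1 was then called on the side of LC-DTR, against 4 with all samples, and 1 on the side of LC-DTA in both fits. With all samples the latter was Cdkn2d (0.62, SE 0.15, adjusted p = 0.00952). Of all tested genes, 12.6% were called on the side of LC-DTR and 10.5% on that of LC-DTA, with all samples. Of 13 genes of the replication stress checkpoint, 8 fell and 3 rose in LC-DTR, and 1 fell and 4 rose in LC-DTA. Wee1, the kinase that restrains entry into mitosis, was the gene that fell in both, by 1.15 and by 1.22.

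The levels of cell type markers differed between the groups as well. In bulk tissue, fewer cells of a type and less RNA per cell cannot be told apart. For LC-DTR, 6 markers of the basal epidermis summed to 14526 to 16363 TPM with vehicle and 7932 to 10232 after croton oil. For LC-DTA the sums were 13818 to 13960 with vehicle and 11117 to 13121 after croton oil. The group with low replication genes was thus also the lowest in this sum, in which abundant markers weigh most. The markers taken singly were mixed. Between the croton oil groups, limma called 2 of the 6 higher in LC-DTA and 0 lower (also 0 at an unadjusted p under 0.05). The other 4 were not called, and the differences ran from -0.33 to 0.66. Of all tested genes, 34.3% were called higher there. Of the 6 basal markers, 4 fell and 1 rose after croton oil in LC-DTR, and 3 fell and 2 rose in LC-DTA. Over all tested genes, 29.5% were called lower and 22.1% higher in LC-DTR, and 34.5% lower and 24.2% higher in LC-DTA. The keratin Krt5 fell by 1.29 and by 0.51 in LC-DTR and LC-DTA, Krt15 by 1.77 and by 2.03, and the collagen Col17a1 by 0.36 and by 0.25. The integrin Itga6 rose in both, by 0.52 and 0.77, and Itgb4 differed by 0.31 and 0.05 with no call. Krt14 fell by 0.46 in LC-DTR and rose by 0.30 in LC-DTA. Markers of the hair follicle, 7 in number, summed to 21.5 to 45.2, 10.8 to 14.5, 21.7 to 32.2 and 7.87 to 12.1 TPM in the same order of groups. The follicle sums were thus lower after croton oil in both genotypes. Of the 6 tested, 3 fell in LC-DTR and 2 in LC-DTA, the latter near the share of all tested genes called lower there. LC-DTR vehicle sample 3 was the highest of all samples in the follicle sum. The part of these shifts in the replication results was not tested.

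Markers of immune cells differed in another way. The 6 neutrophil markers all rose in both genotypes, with sums of 25.7 to 68.9 and then 262 to 769 TPM in LC-DTR and 33.7 to 67.4 and then 439 to 670 TPM in LC-DTA. The sums of LC-DTR croton oil samples overlapped those of LC-DTA. The 5 markers of monocytes and macrophages summed to 307 to 492 and then 338 to 424 TPM in LC-DTR, with 0 called by limma (1 at an unadjusted p under 0.05), and to 648 to 838 and then 1179 to 1511 TPM in LC-DTA, with 2 higher and 1 lower. After croton oil, 22.1% of all tested genes were called higher and 29.5% lower in LC-DTR, and 24.2% higher and 34.5% lower in LC-DTA. The LC-DTA counts of these 5 markers lay near those shares. The 3 matched T cell markers summed to 154 to 177, 151 to 229, 256 to 263 and 296 to 347 TPM in the same order of groups. The 5 fibroblast markers summed to 2022 to 4631, 2086 to 3088, 6697 to 8493 and 4163 to 5741 TPM, and the 5 mast cell markers to 198 to 294, 178 to 288, 389 to 594 and 355 to 455 TPM. The 5 markers of differentiated epidermis summed to 30843 to 37939, 25064 to 29334, 24404 to 26489 and 22144 to 25595 TPM. Sums for cartilage (4 markers) were 73.5 to 86.5, 56.8 to 86.3, 89.9 to 102 and 53.9 to 85.6 TPM, for endothelium (3) 48.9 to 61.0, 54.2 to 73.4, 85.0 to 96.7 and 69.3 to 80.5 TPM, and for skeletal muscle (3) 855 to 1129, 1004 to 1088, 848 to 1431 and 680 to 1174 TPM. No marker was at 0 in every sample of a group. The sums for monocytes and macrophages, T cells, fibroblasts, mast cells, endothelium and cartilage were thus higher in every LC-DTA than every LC-DTR vehicle sample. Under vehicle, limma called higher in LC-DTA 5 of 5 fibroblast, 5 of 5 mast cell, 4 of 5 monocyte and macrophage and 2 of 3 endothelium markers. Of 3 T cell markers 1 was called higher and 1 lower. Of 3 tested cartilage markers 0 were called (also 0 at an unadjusted p under 0.05). Over all tested genes, 19.1% were called higher and 5.34% lower. The part of these markers in the replication results was not tested.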

How the data were processed

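RNA of 14 whole ear samples was isolated with an RNeasy kit and made into TruSeq Stranded mRNA libraries, per the labels' protocols. Tools named in the submitters' processing notes are HISAT2, cutadapt, featureCounts and Subread, and the build is mm10. The values were TPM, deposited by the authors for 24062 rows, and each sample summed to 1e+06. How the TPM were computed, and with what use of strand, is not given in the sources used here. Depth cannot be read from TPM, and no counting intervals are given. The 27 rows named as dates (0.124 to 0.145% of the TPM) were left out, 0 value columns lacked a sample, and 9342 genes fell below the filter of 1 TPM in 3 samples.

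The deposited TPM were taken to log2(TPM + 1). A single limma model (3.58.1, under R 4.3.3) held 4 group means, with a mean-variance trend. Benjamini-Hochberg adjustment of the two-sided p-values ran over the 14693 tested genes, within each of 5 comparisons. Other steps used Python 3.11.15, pandas 2.3.3 and matplotlib 3.10.9. The fit was first run on simulated data with independent noise for each gene. Those data held no shifts of whole samples, so they do not show how the fit handles such shifts. The 43 genes and the other lists were chosen with earlier results of these data known. Values in every sample are given for Mcm2, Mcm5, Pcna, Rrm2 and Ccne1, for up to 4 genes called in each direction with the largest difference in each comparison of 2 groups, and for up to 4 with the lowest p in the difference of responses. Of each other list, up to 4 genes in each direction, by lowest p, could be named, and the text uses fewer. Orc1 and Rrm1, the subunit ratios and the basal marker genes were chosen after their values were seen. Positions came from GENCODE M21 (GRCm38) and promoters from RefSeq, in which 37 of the 43 genes matched. Alternatives were other pseudocounts, filters, scalings, variance models and sample sets.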

Additional observations from a re-analysis of the deposited data

Results flagged for a closer look

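The change after croton oil was more upward, or less downward, in LC-DTA than in LC-DTR for 39 of the 43 genes in limma's test of the difference itself, at an adjusted p under 0.05. The difference of the responses, LC-DTA minus LC-DTR on the log2(TPM + 1) scale, is given for each of the 39. In the MCM2-7 helicase it was 2.22 for Mcm2, 1.36 for Mcm3, 1.09 for Mcm4, 2.25 for Mcm5, 1.20 for Mcm6 and 0.38 for Mcm7. For origin licensing it was 1.29 for Orc1, 0.29 for Orc6 and 0.52 for Cdc6. In helicase activation it was 0.69 for Mcm10, 0.88 for Cdc45, 0.92 for Gins1, 1.56 for Gins2 and 0.53 for Gins3. For the clamp and its loader it was 0.51 for Pcna, 0.56 for Rfc2, 0.57 for Rfc4 and 0.55 for Rfc5. In the polymerases and primase it was 1.10 for Pola1, 1.14 for Prim1, 0.97 for Pold1, 1.02 for Pole and 1.39 for Pole2. For strand processing it was 0.44 for Fen1, 1.26 for Lig1 and 0.59 for Rpa2. In nucleotide supply it was 1.03 for Tyms, 1.21 for Rrm1, 1.71 for Tk1 and 0.88 for Dut. For the chromatin and histone genes it was 2.20 for Hells, 2.40 for Uhrf1, 0.75 for Chaf1a, 0.62 for Chaf1b and 0.76 for Slbp. In the G1/S regulators it was 1.58 for Ccne1, 0.84 for Ccne2, 1.32 for E2f1 and 1.56 for Rbl1.

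In 4 groups of 4 samples, a single sample lay far above the other 3 of its group, by Dixon's criterion at 95%. Mcm4 was at 42.1 TPM and Gins2 at 11.5 TPM in LC-DTA croton oil sample 4, where the other 3 samples lay at 35.9 to 36.5 and at 9.77 to 10.1 TPM. Rfc4 was at 22.6 TPM in LC-DTR croton oil sample 2, against 17.1 to 17.9 TPM in the others. Dut was at 6.32 TPM in LC-DTR croton oil sample 3, against 4.68 to 4.90 TPM. Among the 86 groups examined, 4 such samples were found, and chance gives about 1 in 20.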

How the results depend on the processing

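The 41 decreases called in LC-DTR numbered 36 to 41 over all alternatives, with 36 at a filter of 5 TPM, where fewer genes were tested. The 41 genes higher in LC-DTA than in LC-DTR after croton oil numbered 36 to 42, and the 39 whose responses differed numbered 33 to 42. Smaller counts moved more, and the cause was not tested except where fewer samples entered. The 13 genes called higher in LC-DTA numbered 17 with median ratio scaling, 16 with quantile normalization, 7 without LC-DTA croton oil samples 3 and 4, and 8 to 15 leaving out 1 sample. The 5 called lower there numbered 3 with median ratio scaling, 2 without LC-DTA croton oil samples 3 and 4, and 3 to 6 leaving out 1 sample. The 4 called lower in LC-DTA under vehicle numbered 12 with median ratio scaling, 14 with quantile normalization, 1 with only the compared groups in the fit, and 0 to 5 leaving out 1 sample, and those called higher numbered 0 to 3. For Pcna in LC-DTR the difference of 0.01 became -0.06 with quantile normalization and ran from -0.04 to 0.05 leaving out 1 sample. Over the replication genes and comparisons picked by the naming rule, 621 of 669 alternatives kept direction and side of the threshold, 44 lost the call and 4, all of Pcna, changed sign. Genes of the other lists were refitted only without LC-DTR vehicle sample 3, a setting chosen after seeing the data. With the replicate number as a block, Pcna was at -0.04 and 2 genes were called lower under vehicle. The numbers share only a label, since the 19 pairs of same-numbered samples of different groups had deviations correlated at -0.315 to 0.126, and 0 of 14 samples correlated best with a sample of their own number. All counts rest on TPM of unknown depth and on 3 or 4 samples a group.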
